A study of Homo sapiens with 12 samples.

Results

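Genes that are transcribed when ERK is active, most of which then damp the pathway, were followed in C4.2B cells, a human prostate cancer line of the castration-resistant type. They were 10 genes, chosen by name and found among the 23228 genes listed in the count files: the MAP kinase phosphatases DUSP4, DUSP5 and DUSP6, the Sprouty genes SPRY1, SPRY2 and SPRY4, the Sprouty-related genes SPRED1 and SPRED2, and the ETS transcription factor genes ETV4 and ETV5. RNA was sequenced from 12 libraries, 3 (A, B and C) in each of 4 arms. DMSO received vehicle, GDC received 0.5 µM GDC-0941, which inhibits all class I PI3K isoforms, GSK received 5 µM GSK126, which inhibits EZH2, and COMBO received both at these doses. All arms were collected after 24 h of treatment. At its start they were switched from 10% fetal bovine serum to 10% charcoal-stripped serum, which is low in androgens. Before that, GSK and COMBO had 6 days of GSK126, and DMSO and GDC had 6 days of vehicle. The replicates were plates of a single cell line, so the p-values measure the spread between plates.

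In the RAS to ERK cascade, receptors activate RAS, RAS activates RAF kinases, RAF activates MEK and MEK activates ERK. Active ERK reaches the nucleus and induces, among others, phosphatases that remove its activating phosphates and adaptors that act upstream at the level of receptors and RAS. The transcripts of these genes are therefore widely read as a record of recent ERK output, although each has other regulators too. PI3K inhibition is known to relieve feedback on receptors in some cancers, and EZH2 places the repressive histone mark H3K27me3 at many genes. The comparisons below ask how this readout differed between the arms. No phosphorylated ERK and no chromatin mark was measured in these libraries.

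The 10 genes together took 870 to 4217 counts per library, in libraries of 8785218 to 44437751 gene counts, with the widest spread of depth in DMSO. Levels are given as CPM (counts scaled to library size) adjusted by the trimmed mean of M values (TMM), and a count of 0 allowed up to 0.0675 to 0.341 CPM for counting error alone. The share of reads that fell in genes was lower with each agent and lowest with both, with means of 75.8% (DMSO), 74.1% (GDC), 70.7% (GSK) and 67.6% (COMBO), and its part in the results was not tested. All 9 luminal prostate markers examined, among them KLK3 and HOXB13, were above 1 CPM on average in every arm, with a summed level of 3328 to 3549 CPM in DMSO and 5595 to 6033 CPM in COMBO. The 3 basal markers summed to at most 0.355 CPM in any library, and of 4 neuroendocrine markers only SYP was above 1 CPM. Among 6 blood, endothelial and stromal markers, PTPRC, CD3E, PECAM1 and DCN were at 0 in every DMSO and GDC library. The sum of that list was higher with GSK126, going from 10.3 to 11.7 CPM in DMSO and 11.1 to 14.3 CPM in GDC to 26.0 to 38.2 CPM in GSK and 29.5 to 48.3 CPM in COMBO, with only COL1A1 and COL3A1 above 1 CPM.

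Promoter sequence was looked up in RefSeq (GRCh38.p14), which had entries for 6 of the 10 genes and 10 start sites among them. Windows of 250 bases before the start are shown for DUSP6 and SPRED1, which were higher with GSK126, and for SPRY1, which was lower. They were picked after the expression values were seen. Sequences run 5′ to 3′ along the gene's strand and end at the base before the start, with each CpG dinucleotide in capitals. DUSP6 is on the minus strand at chr12:89352502-89352751, SPRED1 on the plus strand at chr15:38252586-38252835, and SPRY1 on the plus strand at chr4:123396545-123396794.
DUSP6: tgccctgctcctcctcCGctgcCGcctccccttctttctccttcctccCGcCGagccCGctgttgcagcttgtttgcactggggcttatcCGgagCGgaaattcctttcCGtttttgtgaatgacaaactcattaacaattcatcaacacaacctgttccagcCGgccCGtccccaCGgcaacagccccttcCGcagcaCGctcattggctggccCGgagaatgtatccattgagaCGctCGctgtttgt
SPRED1: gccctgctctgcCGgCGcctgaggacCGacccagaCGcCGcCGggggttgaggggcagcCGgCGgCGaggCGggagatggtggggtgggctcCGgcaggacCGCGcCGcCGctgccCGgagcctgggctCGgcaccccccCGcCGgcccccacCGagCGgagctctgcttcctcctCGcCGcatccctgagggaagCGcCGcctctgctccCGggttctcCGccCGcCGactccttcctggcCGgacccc
SPRY1: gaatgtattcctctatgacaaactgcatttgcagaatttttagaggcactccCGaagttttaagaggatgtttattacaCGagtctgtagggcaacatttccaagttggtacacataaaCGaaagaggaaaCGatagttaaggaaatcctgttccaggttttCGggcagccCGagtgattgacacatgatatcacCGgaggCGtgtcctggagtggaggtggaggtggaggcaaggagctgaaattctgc
The SPRED1 window held 30 CpG at 78.4% GC, the DUSP6 window 16 CpG at 57.2% GC and this SPRY1 window 8 CpG at 45.6% GC, against medians of 11 CpG and 58.0% GC over 35116 windows. A second SPRY1 start had 24 CpG in its window. SPRED2, also lower with GSK126, had windows of 19 CpG (58.8% GC) and 3 CpG (39.2% GC), which are not shown. The windows of all 6 genes were searched on both strands for TGAATGAA (bound by the repressor Capicua, which ERK inactivates), TGAGTCA or its complement TGACTCA (AP-1), CCGGAAGT (ETS factors) and TGACGTCA (CREB). None of the 10 windows held any of these letters, which were found in 493, 1476, 1202 and 578 of the 35116 windows. DUSP4, DUSP5, ETV4 and ETV5 were not looked up further.

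**Figure D1:**
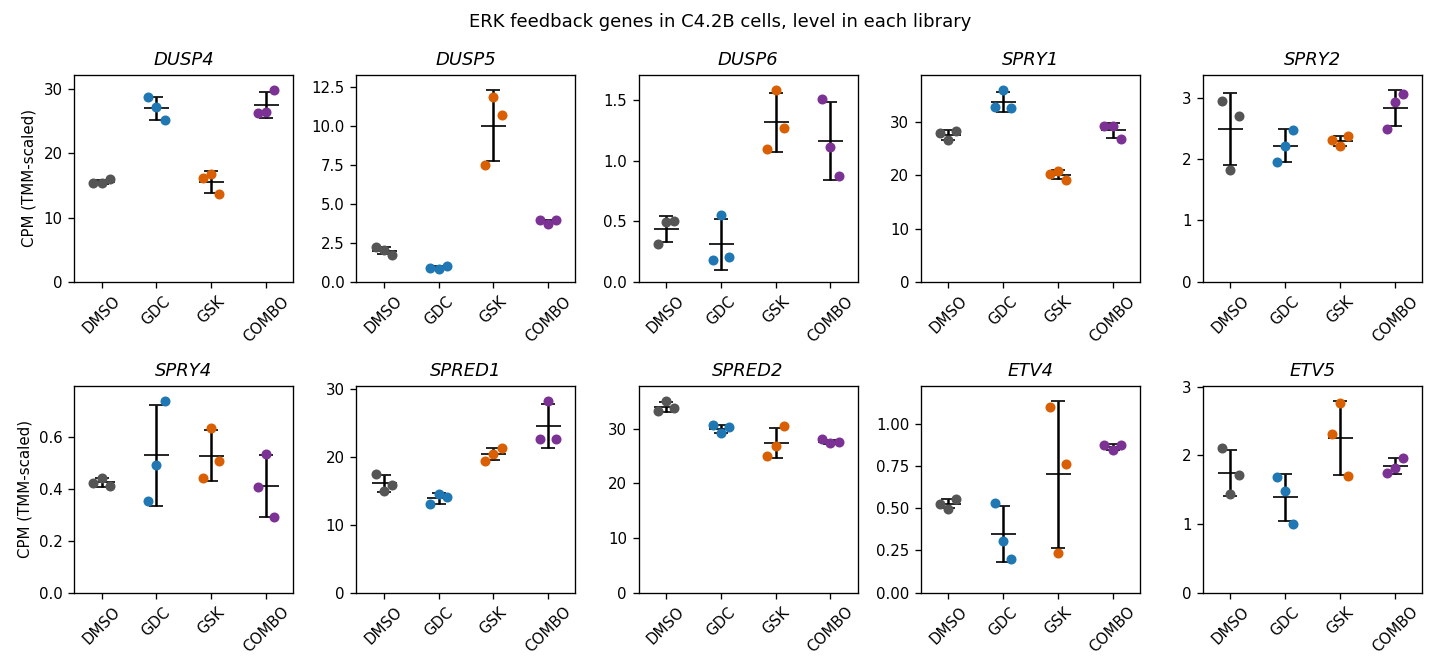
Level of each ERK feedback gene in every library, in TMM-scaled CPM on the vertical axis, by arm on the horizontal axis. Points are the libraries A, B and C from left to right, the horizontal bar is the mean and the error bar the SD (n = 3). DUSP5 stands lowest in GDC and highest in GSK with no overlap between any of the arms, DUSP4 forms a low pair (DMSO, GSK) and a high pair (GDC, COMBO), and SPRY4 overlaps in all arms.

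The genes did not move as a block. Of the 10, 9 passed the filter on low counts and were tested, and SPRY4 did not pass. DUSP6 and ETV4 passed only through the arms with GSK126: the cutoff of 0.705 CPM, applied before TMM scaling, was met by DUSP6 in 0 libraries of DMSO and of GDC and in 3 each of GSK and COMBO, and by ETV4 in 2 libraries of GSK and 3 of COMBO only. A change was called at a Benjamini-Hochberg adjusted p under 0.05 in edgeR's quasi-likelihood test over 14189 genes. With GDC-0941 alone, 2 members were higher (DUSP4, SPRY1) and 2 were lower (DUSP5, SPRED2), where 20.0% of all tested genes were higher and 20.0% were lower. With GSK126 alone, 3 members were higher (DUSP5, DUSP6, SPRED1) and 2 were lower (SPRY1, SPRED2), where 40.0% of all tested genes were higher and 35.7% lower. In COMBO against DMSO, 4 members were higher (DUSP4, DUSP5, DUSP6, SPRED1) and SPRED2 alone was lower, against 43.3% and 39.2% of all tested genes. With library totals as the scale this comparison had 7 members higher and 0 lower, and COMBO against GDC likewise had 7 higher and 0 lower. As shares of the 9 tested members, the counts against DMSO on the TMM scale were near the shares of all genes or below them. Shares of all genes were not taken with library totals, so the counts of 7 have none beside them. The median log2 fold change of the 9 members was -0.19 in GDC, 0.30 in GSK and 0.63 in COMBO, and that of all tested genes was 0.02, 0.06 and 0.05. The medians of the members include DUSP6 and ETV4, whose passing of the filter rested on GSK and COMBO.

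**Figure D2:**
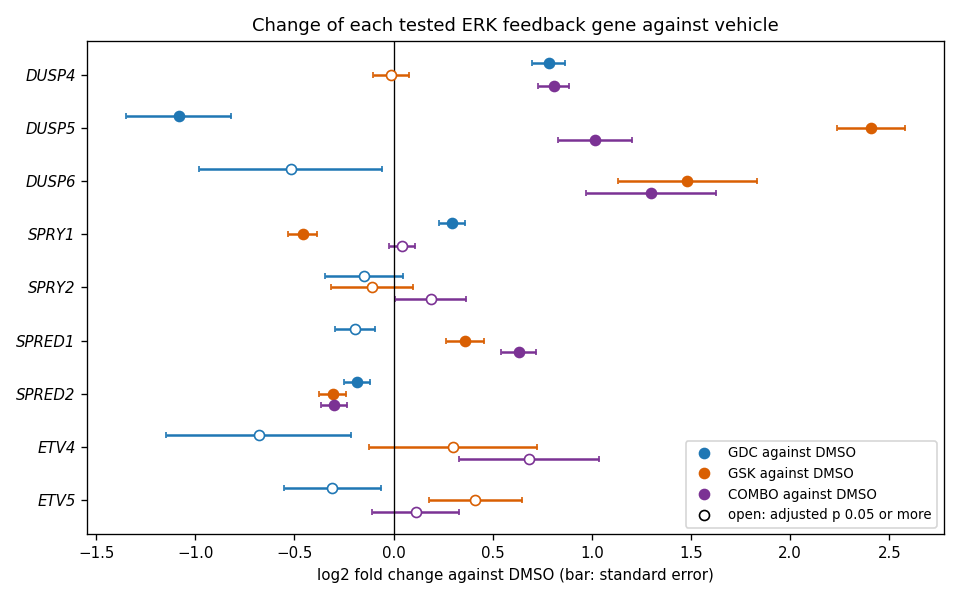
Log2 fold change against DMSO (horizontal axis) of the 9 tested feedback genes (vertical axis) in GDC, GSK and COMBO, with the standard error as a bar. Filled points had an adjusted p under 0.05. DUSP5 lies at -1.08 in GDC, 2.41 in GSK and 1.01 in COMBO, while SPRED2 lies below 0 in all 3 arms.

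Against DMSO, DUSP5 and DUSP6 had the largest changes of the members in GSK and in COMBO, and DUSP5 and DUSP4 had those in GDC. DUSP5, a nuclear phosphatase selective for ERK (10:110497907-110511533 on hg38, GENCODE 44), was the only member for which every step between the 4 ordered arms passed the test. Its level was 2.21, 2.05 and 1.73 CPM with DMSO, 0.884, 0.801 and 1.01 CPM with GDC, 7.47, 11.9 and 10.7 CPM with GSK, and 3.95, 3.73 and 3.93 CPM with COMBO (A, B and C). The order was thus GDC, DMSO, COMBO, GSK from low to high, without overlap between the libraries of any arms. DUSP5 was 2.12-fold lower in GDC (log2 fold change -1.08, SE 0.26, adjusted p = 0.00278) and 5.31-fold higher in GSK (2.41, SE 0.17, adjusted p = 1.06e-10) than in DMSO. In COMBO it was 2.02-fold higher than in DMSO (1.01, SE 0.19, adjusted p = 4.65e-05) and 2.63-fold lower than in GSK (-1.39, SE 0.16, adjusted p = 4.43e-07). Between the extremes, GSK and GDC, the difference was 11.2-fold (3.49, SE 0.21). GDC-0941 lowered DUSP5 both without and with GSK126, and the interaction of the agents did not pass (-0.31, SE 0.33, adjusted p = 0.553). Only 10 to 15 counts stood behind the GDC libraries. Pseudogenes of DUSP5 are annotated but were not counted, so reads could have been shared with them.

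DUSP4 encodes a nuclear phosphatase that acts on ERK and also on the stress kinase JNK. Its level was 15.4, 15.4 and 16.0 CPM with DMSO, 28.7, 27.2 and 25.2 CPM with GDC, 16.2, 16.8 and 13.6 CPM with GSK, and 26.4, 26.4 and 29.9 CPM with COMBO. The arms with GDC-0941 lay above those without it and did not overlap with them. DUSP4 was 1.72-fold higher in GDC (0.78, SE 0.08, adjusted p = 5.01e-07) and 1.75-fold higher in COMBO (0.81, SE 0.08, adjusted p = 1.14e-08) than in DMSO. GSK did not pass against DMSO (-0.01, 95% interval -0.19 to 0.17), nor did COMBO against GDC (0.02, 95% interval -0.13 to 0.18), the latter with an adjusted p of 0.0311 and a value of 0.20 when libraries were scaled by their totals. So DUSP4 and DUSP5, both phosphatases of the nucleus, went in opposite directions with GDC-0941, and of the pair only DUSP5 was called with GSK126.

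DUSP6, the cytoplasmic phosphatase specific for ERK and the member most often used as a readout of the pathway (12:89347235-89352501), was scarce. It had 3, 9 and 21 counts with DMSO, 2, 9 and 3 with GDC, 10, 20 and 15 with GSK, and 26, 25 and 12 with COMBO. In CPM these were 0.316, 0.498 and 0.505 with DMSO, 0.177, 0.554 and 0.201 with GDC, 1.10, 1.58 and 1.27 with GSK, and 1.51, 1.11 and 0.874 with COMBO. All libraries with GSK126 lay above all without it. The gene was 2.79-fold higher in GSK (1.48, SE 0.35, adjusted p = 0.000800) and 2.46-fold higher in COMBO (1.30, SE 0.33, adjusted p = 0.00116) than in DMSO. GDC against DMSO (-0.52, 95% interval -1.42 to 0.38) and COMBO against GSK (-0.18, 95% interval -0.79 to 0.42) did not pass, and at this depth a change of more than 2-fold with GDC-0941 alone lies within the interval. GDC replicate B held 9 of the 14 GDC counts, and without it GDC against DMSO was -1.32 (adjusted p = 0.0839), COMBO against GDC went from 1.82 to 2.61 and GSK against GDC went up to 2.76. Over the 12 libraries, the non-member genes whose log2 CPM was most like that of DUSP6 were TFEB (Pearson r = 0.948), PKIB (0.945) and TBPL1 (0.943), out of 11289 genes of sufficient level. TFEB, for example, averaged 6.75, 6.49, 12.4 and 10.4 CPM (DMSO, GDC, GSK, COMBO). These correlations were the highest of the genes searched and rested on 2 to 26 counts of DUSP6 per library. In GSK, 40.0% of all tested genes were higher than in DMSO, and regulation shared with DUSP6 was not tested.

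The Sprouty genes encode adaptors that block signalling between receptor tyrosine kinases and RAS. SPRY1 (4:123396795-123403760) was the member most abundant per length, at 6.97 CPM per kb of annotated exon in DMSO, next to SPRED2 at 6.18. Its level was 28.0, 26.5 and 28.3 CPM with DMSO, 32.8, 36.0 and 32.6 CPM with GDC, 20.3, 20.9 and 19.2 CPM with GSK, and 29.2, 29.3 and 26.7 CPM with COMBO. GDC was the highest arm and GSK the lowest, while COMBO and DMSO overlapped. SPRY1 was 1.22-fold higher in GDC (0.29, SE 0.07, adjusted p = 0.00140) and 1.37-fold lower in GSK (-0.46, SE 0.07, adjusted p = 1.11e-05). With library totals as the scale the GSK value was -0.30 and still passed. COMBO did not pass against DMSO (0.04, 95% interval -0.08 to 0.17), but did at 0.25 (adjusted p = 0.00155) with library totals. It was lower than GDC (-0.25, SE 0.07, adjusted p = 0.00203), a call lost with library totals (-0.08, adjusted p = 0.301) and without GDC replicate B (-0.17, adjusted p = 0.0523). The interaction was 0.21 (adjusted p = 0.140) and passed only without that library (0.33, adjusted p = 0.0346).

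SPRY2 (13:80335976-80341126) ranged from 1.82 to 3.06 CPM over all libraries, and none of its 7 comparisons passed. Against DMSO its log2 fold change was -0.15 with GDC (95% interval -0.53 to 0.23), -0.11 with GSK (interval -0.51 to 0.29) and 0.19 with COMBO (interval -0.16 to 0.54). With library totals COMBO passed against DMSO (0.39, adjusted p = 0.0489) and against GDC (0.51, adjusted p = 0.0240). SPRY4 (5:142310427-142326455) had 4 to 17 counts per library and averaged 0.424, 0.528, 0.527 and 0.410 CPM (DMSO, GDC, GSK, COMBO). It was close to the floor in every arm, and no difference between arms was detected. Without a filter its log2 fold change was 0.28 (SE 0.47) in GDC, 0.25 (SE 0.50) in GSK and -0.04 (SE 0.47) in COMBO. Genes with the most similar profile to SPRY4 reached lower correlations than those of DUSP6 (LOC344595 0.824, HIBCH 0.758, CCBL2 0.751), over few counts. An antisense gene overlaps SPRY4, and the use of strand in the counting was not given, so its counts are uncertain.

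SPRED1 and SPRED2 encode membrane adaptors that bring the RAS-inactivating protein NF1 to RAS, and they diverged. SPRED1 (15:38252836-38357249) had 17.5, 14.9 and 15.9 CPM with DMSO, 13.0, 14.6 and 14.0 CPM with GDC, 19.4, 20.5 and 21.3 CPM with GSK, and 22.6, 28.2 and 22.6 CPM with COMBO. The arms did not overlap and were ordered GDC, DMSO, GSK, COMBO, and the step from GDC to DMSO did not pass. SPRED1 was 1.28-fold higher in GSK (0.36, SE 0.10, adjusted p = 0.00247) and 1.55-fold higher in COMBO (0.63, SE 0.09, adjusted p = 1.93e-06) than in DMSO. COMBO was also above GSK (0.27, SE 0.09, adjusted p = 0.0228). This step was lost without COMBO replicate B (0.14, adjusted p = 0.197), without GSK replicate A (0.27, adjusted p = 0.0543) and in DESeq2 (0.27, adjusted p = 0.0523). GDC against DMSO was -0.19 (95% interval -0.39 to 0.00, adjusted p = 0.130), and was called lower with no filter (-0.26, adjusted p = 0.0304).

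SPRED2 (2:65310851-65432637) had 33.3, 35.1 and 33.7 CPM with DMSO, 30.6, 29.2 and 30.2 CPM with GDC, 24.9, 26.9 and 30.4 CPM with GSK, and 28.0, 27.3 and 27.5 CPM with COMBO. Every treated library lay below every DMSO library. The gene passed as lower than DMSO at -0.18 with GDC (SE 0.07, adjusted p = 0.0317), at -0.31 with GSK (SE 0.07, adjusted p = 0.000480) and at -0.30 with COMBO (SE 0.06, adjusted p = 0.000255) on the log2 scale. These were changes of 1.14-fold to 1.24-fold, and all 3 calls depended on the scaling. With library totals they were -0.15, -0.15 and -0.09, with adjusted p of 0.0799, 0.0514 and 0.184, while that scale moved the median of all genes up by 0.15 in GSK and 0.21 in COMBO. COMBO against GSK did not pass (0.01, 95% interval -0.13 to 0.14).

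ETV4 and ETV5 encode ETS factors of the PEA3 group, which are induced by ERK and carry its output to further genes. ETV4 (17:43527844-43579620) had 5, 9 and 23 counts with DMSO, 6, 5 and 3 with GDC, 10, 3 and 9 with GSK, and 15, 19 and 12 with COMBO. Its CPM was 0.526, 0.498 and 0.553 with DMSO, 0.530, 0.308 and 0.201 with GDC, 1.10, 0.237 and 0.763 with GSK, and 0.871, 0.843 and 0.874 with COMBO, with GSK replicate B below every DMSO library and GSK replicate A above every COMBO library. COMBO was 2.57-fold above GDC (1.36, SE 0.44, adjusted p = 0.00864), the single comparison of ETV4 that passed. COMBO against DMSO did not pass (0.68, 95% interval -0.01 to 1.37), except with library totals (0.89, adjusted p = 0.0267), and GSK against GDC passed only without GSK replicate B (1.44, adjusted p = 0.0123). ETV5 (3:186046314-186110318) had 2.11, 1.44 and 1.71 CPM with DMSO, 1.68, 1.48 and 1.01 CPM with GDC, 2.31, 2.77 and 1.69 CPM with GSK, and 1.74, 1.82 and 1.97 CPM with COMBO. GSK was above GDC (0.72, SE 0.26, adjusted p = 0.0197), a call lost without GDC replicate C (0.54, adjusted p = 0.0979), without GSK replicate B (0.52, adjusted p = 0.142) and in DESeq2 (0.72, adjusted p = 0.0695). Against DMSO, ETV5 in GSK was at 0.41 (95% interval -0.04 to 0.87) and passed without GSK replicate C (0.60, adjusted p = 0.0407) and with library totals (0.57, adjusted p = 0.0353). ETV4 overlaps DHX8 and ETV5 overlaps DGKG in the annotation, so their counts are uncertain.

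To ask whether the effect of an agent was the same with the other present, each effect was set beside its counterpart measured on the other 6 libraries. GDC-0941 without GSK126 (GDC against DMSO) and with it (COMBO against GSK) changed DUSP4 by 0.78 and 0.82, DUSP5 by -1.08 and -1.39, and SPRY1 by 0.29 and 0.50 on the log2 scale, all called. In COMBO against GSK, 3 members were higher (DUSP4, SPRY1, SPRED1) and DUSP5 was lower, where 19.0% of tested genes were higher and 26.9% lower. GSK126 without GDC-0941 (GSK against DMSO) and with it (COMBO against GDC) changed DUSP5 by 2.41 and 2.10, DUSP6 by 1.48 and 1.82, and SPRED1 by 0.36 and 0.82, all called. SPRY1 was lower in both (-0.46 and -0.25), while SPRED2 was called without GDC-0941 (-0.31) and not with it (-0.12, adjusted p = 0.121). In COMBO against GDC, 4 members were higher (DUSP5, DUSP6, SPRED1, ETV4) and SPRY1 was lower, where 37.9% of tested genes were higher and 38.0% lower. DUSP6 and ETV4 had passed the filter only through the arms with GSK126, so their calls as higher with GSK126 add no separate support. Set against each other, GSK was above GDC in 4 members (DUSP5, DUSP6, SPRED1, ETV5) and below it in 2, DUSP4 (-0.80) and SPRY1 (-0.75), where 32.6% of tested genes were higher and 33.4% lower.

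The interaction compares the 2 effects of an agent directly, as the log2 change in COMBO minus the sum of the changes in GDC and GSK. It passed for SPRED1 alone (0.47, SE 0.14, 95% interval 0.20 to 0.73, adjusted p = 0.0188), which was higher in COMBO than that sum. Of all tested genes, 4.86% were higher and 16.5% lower in this test. For SPRED1 the value with GDC-0941 was -0.19 without GSK126 and 0.27 with it. For DUSP4 the interaction was 0.04 (95% interval -0.20 to 0.27), and for SPRED2 it was 0.19 (adjusted p = 0.178). The intervals of DUSP6 (-0.75 to 1.41) and ETV4 (-0.14 to 2.26) were wide.

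**Figure D3:**
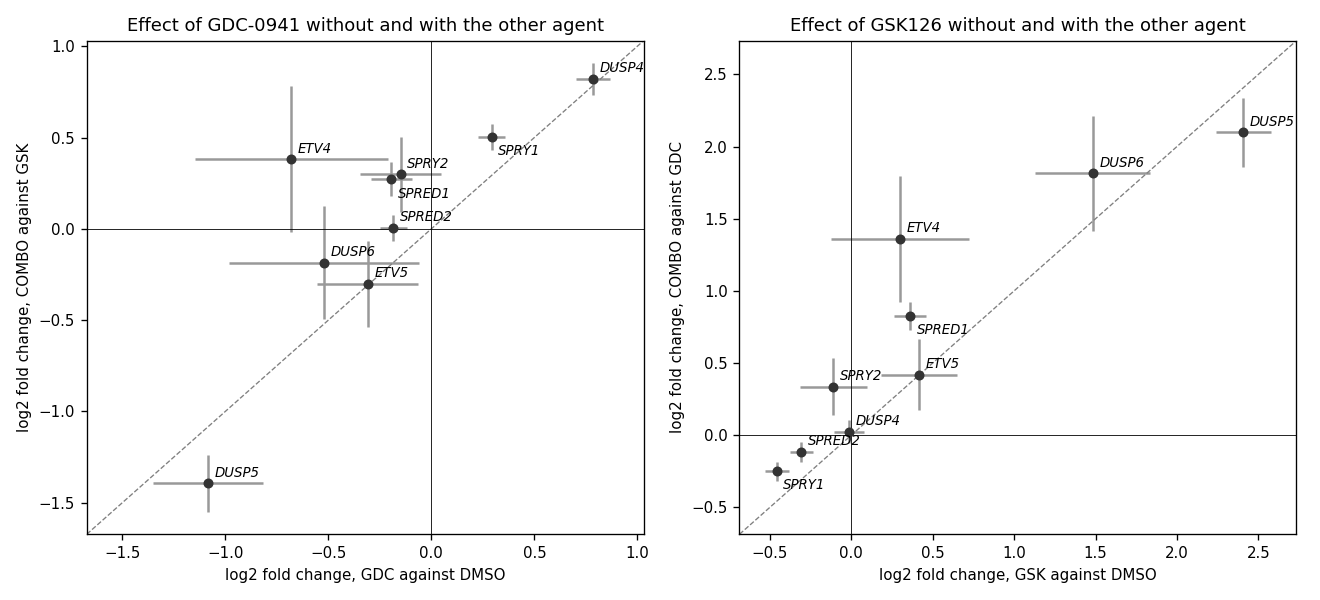
Left, log2 fold change with GDC-0941 in the absence (GDC against DMSO, horizontal axis) and presence (COMBO against GSK, vertical axis) of GSK126. Right, the same for GSK126 in the absence (GSK against DMSO) and presence (COMBO against GDC) of GDC-0941, with standard errors as bars and equal effects on the dashed line. DUSP4 lies near the dashed line in both panels, and SPRED1 lies above it in both, at -0.19 and 0.27 on the left and 0.36 and 0.82 on the right.

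Other genes of the pathway were read from companion lists. Among 19 genes of the cascade itself, from the RAS genes to the kinases downstream of ERK, all were tested. There were 3 higher and 7 lower with GDC, 5 higher and 9 lower with GSK, and 6 higher and 11 lower with COMBO, against the shares of all tested genes given above for each arm, with medians of -0.08, -0.08 and -0.21. The called genes with the largest changes in COMBO were KSR1, a scaffold that holds RAF, MEK and ERK together, and GAB1, an adaptor between receptors and both RAS and PI3K. KSR1 was scarce, with averages of 0.475, 0.247, 2.43 and 2.59 CPM in the same order of arms, and was higher than DMSO in GSK (2.62, SE 0.36) and COMBO (2.65, SE 0.34). Its highest level was 0.842 CPM in DMSO and 0.354 CPM in GDC. The lowest was 1.98 CPM in GSK and 1.69 CPM in COMBO, so its passing of the filter rested on the arms with GSK126. GAB1 rose in each arm, from 6.66 CPM with vehicle to 9.49, 13.6 and 21.1 CPM with GDC, GSK and COMBO, which was 0.56, 1.09 and 1.71 above DMSO on the log2 scale.

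The other phosphatases of the family were read in the same way. Of 7 tested, 0 were higher and 4 lower in GDC, and 3 were higher and 3 lower in both GSK and COMBO, with medians of -0.21, -0.01 and 0.07. The shares of all tested genes were 20.0% higher and 20.0% lower with GDC, 40.0% higher and 35.7% lower with GSK, and 43.3% higher and 39.2% lower with COMBO, so the counts of 3 in GSK and COMBO were near them. DUSP8, which acts on JNK and p38, went from 13.6 CPM in DMSO and 11.5 in GDC to 26.8 in GSK and 33.2 in COMBO (log2 change in COMBO 1.30, SE 0.07). DUSP9, which acts on ERK, went from 27.8 and 26.6 CPM to 7.68 and 5.51 (in COMBO -2.34, SE 0.11). DUSP7, an ERK-selective enzyme close to DUSP6 and DUSP9, had 33.7, 29.4, 16.8 and 14.9 CPM (DMSO, GDC, GSK, COMBO) and was lower in GSK (-1.04, SE 0.08) and COMBO (-1.19, SE 0.08). Among the phosphatases selective for ERK, DUSP5 and DUSP6 were higher with GSK126 and DUSP7 and DUSP9 were lower, where DUSP6 had passed the filter only through those arms. DUSP10 had an interaction of -0.60 (SE 0.10, adjusted p = 0.000118), with 20.5, 17.3, 48.0 and 26.6 CPM in DMSO, GDC, GSK and COMBO. DUSP7 and DUSP10 were chosen after their values were seen.

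Transcripts induced by ERK other than the 10 members were counted too. Of 12 listed, 10 were tested (FOSL1 and EPHA4 were too low), and 1 was higher and 3 lower with GDC, 4 higher and 5 lower with GSK, and 3 higher and 4 lower with COMBO, with medians of -0.02, 0.00 and 0.07. Beside this, all tested genes gave 20.0% and 20.0% for GDC, 40.0% and 35.7% for GSK, and 43.3% and 39.2% for COMBO, which lie near the counts of the list. FOS, an immediate early gene and AP-1 subunit, had 14, 13, 32 and 39 counts in all (DMSO, GDC, GSK, COMBO), and was called higher in GSK (2.21, SE 0.43) and COMBO (1.81, SE 0.42). Its highest level was 0.241 CPM in DMSO and 0.530 CPM in GDC, so it too passed the filter only through the arms with GSK126. EPHA2, a receptor tyrosine kinase, passed as lower with GDC (-0.63, SE 0.10), GSK (-0.66, SE 0.11) and COMBO (-1.00, SE 0.10). Among 6 RAS GTPase activators, 1 was higher and 0 lower with GDC, 3 higher and 2 lower with GSK, and 3 higher and 1 lower with COMBO, with medians of 0.04, 0.01 and 0.29, beside the same shares of all tested genes. RASAL2 was higher in GSK (0.52, SE 0.12) and COMBO (0.87, SE 0.11). RASAL1 averaged 0.0666, 0.507, 1.25 and 1.45 CPM (DMSO, GDC, GSK, COMBO), from 7, 20, 42 and 75 counts. Its highest level was 0.144 CPM in DMSO and 0.884 CPM in GDC. The lowest was 0.932 CPM in GSK and 1.07 CPM in COMBO, so its passing of the filter rested on the arms with GSK126. The counts and medians of this list include it.

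Of the 3 genes of the Capicua repressor, ATXN1, which partners Capicua, was the single one called in GSK (1.02, SE 0.09) and in COMBO (1.43, SE 0.09), and 0 of the 3 passed in GDC. The medians of the 3 genes were -0.08 with GDC, 0.15 with GSK and 0.00 with COMBO. ATXN1 averaged 15.7, 13.7, 31.8 and 42.5 CPM (DMSO, GDC, GSK, COMBO), and CIC and ATXN1L did not pass in these comparisons, although with library totals all 3 passed in COMBO. Of 5 FGF receptor genes, 1 was higher and 1 lower in GDC, and 3 were higher and 1 lower in both GSK and COMBO, with medians of 0.11, 0.29 and 0.30. All tested genes were called higher and lower in 20.0% and 20.0% (GDC), 40.0% and 35.7% (GSK), and 43.3% and 39.2% (COMBO). FGFR2 was higher in COMBO (0.68, SE 0.09), and FGFRL1, which lacks a kinase domain, was lower (-0.65, SE 0.05). The remaining relatives of the feedback genes, SPRY3, SPRED3 and ETV1, did not pass the filter. SPRY3 had 0 counts in all 12 libraries, and SPRED3 had 5, 0, 2 and 27 counts in DMSO, GDC, GSK and COMBO.

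**Figure D4:**
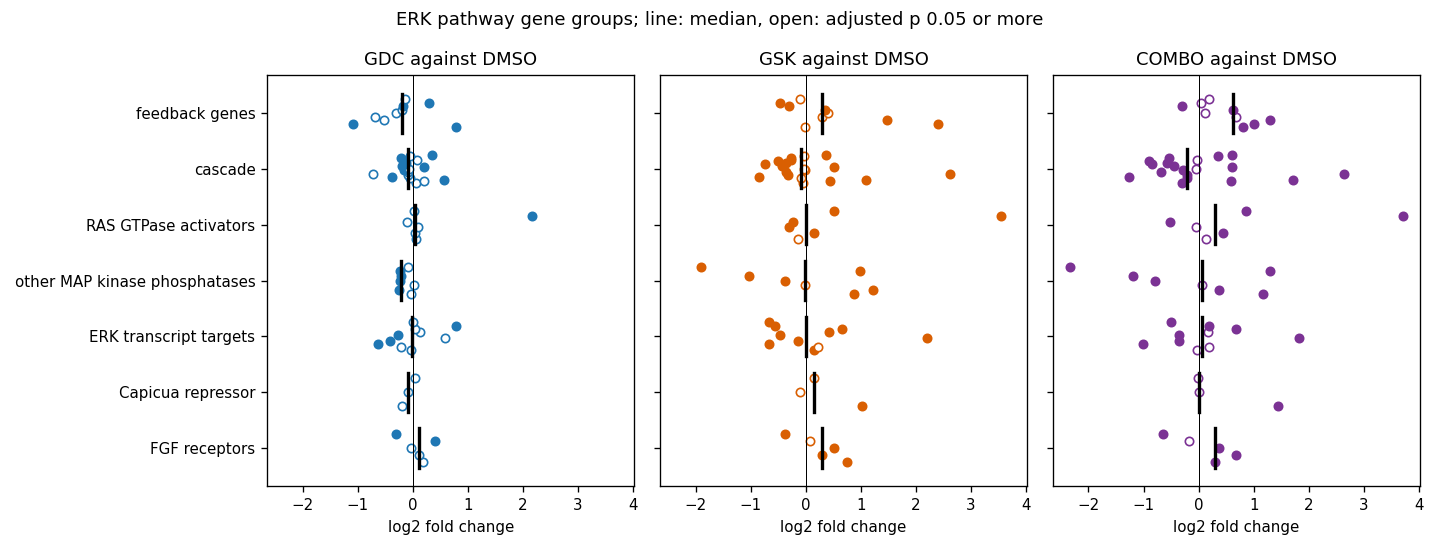
Log2 fold change against DMSO (horizontal axis) of each tested gene of the feedback group and of 6 companion groups (vertical axis), for GDC, GSK and COMBO. Filled points had an adjusted p under 0.05 and the black line is the median of the group. In GSK and COMBO each group except the Capicua repressor has filled points on both sides of 0.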

How the data were processed

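PolyA RNA-seq was done on 12 libraries of C4.2B cells. Per the study's methods, the authors aligned reads to hg38 with STAR and counted them per gene symbol with HTSeq. These deposited count tables hold unscaled whole numbers, plus summary lines that were left out here. Versions, annotation and strand setting are not given in the sources used here, so overlapping and antisense genes are uncertain. Besides SPRY4, ETV4 and ETV5, this holds for DUSP6 and SPRED2, which each overlap an annotated gene that was not counted. A table of normalized values was not used, and 0 columns were left unmapped.

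Counts were tested with edgeR 4.0.16 (quasi-likelihood, R 4.3.3) on TMM-scaled libraries after filterByExpr, which kept 14189 genes. All 12 libraries entered 1 fit with a coefficient per arm, and p-values were two-sided and adjusted over all tested genes by Benjamini-Hochberg. SE is the absolute log2 fold change over the square root of F, and 95% intervals are built from it with the quantile of a normal distribution. They are therefore somewhat narrower than the F test would give. The code was tested on simulated data. Replicates differed by more than sampling noise (chi-square per degree of freedom 1.80 to 6.49), so each counted once. Arms and replicates come from the sample titles. The test did not use the replicate letters, since in 2 of 18 same-letter pairs only the correlation of deviations was over 0.1. Both were pairs of GDC with COMBO (A 0.116, B 0.188), where C was at 0.0727. Unlike letters of these arms ran from -0.146 to 0.0453, so the letters may be paired there. With the letter as a block, COMBO against GDC had the same 5 called members.

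The members, companion lists and tests were chosen with earlier results of these data known. Named were all members, the 2 called genes of each companion list with the largest change in COMBO, and the 3 genes most like DUSP6 and SPRY4 by Pearson r of log2 CPM (prior count 2, mean log2 CPM of at least 2). Positions are from GENCODE 44. Alternatives were DESeq2 1.42.0, DESeq2 size factors, library totals, a mean of at least 1 CPM as the filter, no filter, the compared arms only, a replicate block, leaving out each library and a log2 change of at least 1.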

Additional observations from a re-analysis of the deposited data

Results flagged for a closer look

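The effect of GDC-0941 on SPRED1 differed between cells without and with GSK126, by the interaction term of edgeR's quasi-likelihood fit (0.47 on the log2 scale, SE 0.14, adjusted p = 0.0188). SPRED1 was at 13.9 CPM ± 0.813 in GDC against 16.1 CPM ± 1.28 in DMSO, and at 24.5 CPM ± 3.24 in COMBO against 20.4 CPM ± 0.913 in GSK (SD, n = 3). All 3 GDC libraries lay below the DMSO libraries and all 3 COMBO libraries lay above the GSK libraries. The interaction passed in each of the 18 alternative fits, at 0.34 to 0.59 with an adjusted p of at most 0.0467. By itself, GDC against DMSO did not pass (adjusted p = 0.130). COMBO against GSK passed (adjusted p = 0.0228) but lost its call in 3 of the alternative fits.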

How the results depend on the processing

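Of 63 values of single members (9 genes, 7 comparisons), 46 kept their side of the threshold under all alternative fits, and 36 of these also kept their sign. The sign changed in 12 values, of which 0 were called. With library totals as the scale, the median over all tested genes went up by 0.15 (GSK), 0.21 (COMBO), 0.17 (COMBO against GDC) and 0.12 (GSK against GDC) on the log2 scale, and the 3 SPRED2 calls against DMSO were lost, while COMBO against DMSO and COMBO against GDC each went from 4 higher and 1 lower to 7 higher and 0 lower. When a log2 change of at least 1 was also asked for, the called members fell from 4 to 1 (DUSP5) in GDC against DMSO, from 5 to 2 for GSK against DMSO and likewise from 5 to 2 for COMBO against DMSO (DUSP5 and DUSP6 in both), from 5 to 3 in COMBO against GDC, from 4 to 1 in COMBO against GSK, from 6 to 2 in GSK against GDC, and from 1 to 0 in the interaction. With a mean of at least 1 CPM, 7 members were tested and 3 were called in COMBO against GDC, because DUSP6 and ETV4 were not tested. Leaving out 1 library gave 4 to 4 called members in GDC against DMSO, 5 to 6 in GSK against DMSO, 5 to 5 in COMBO against DMSO, 4 to 5 in COMBO against GDC, 3 to 4 in COMBO against GSK, 5 to 7 in GSK against GDC, and 1 to 2 in the interaction, where SPRY1 was added without GDC replicate B. SPRED2 in GSK against GDC passed without GSK replicate C only (-0.19, adjusted p = 0.0336). The replicate block gave 4, 5, 5, 5, 4, 6 and 1 called members in the 7 comparisons, the same counts as without it. Same-letter libraries had correlations of -0.0839 to 0.188, the highest between GDC and COMBO, and the letters were not read as pairs. Of 245 counts over companion lists, 41 moved by more than 1.5 times. Shares of all tested genes were not taken under the alternatives or with the added size threshold. Whether the member counts there differed from those of other genes was therefore not tested. DUSP6, ETV4 and SPRY4 rested on 2 to 26 counts per library, which limits what can be seen of them.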
